A study of Mus musculus with 43 samples.

Results

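The fibroblast growth factor (FGF) axis of fat was followed through 6 genes, chosen by name from the 56748 genes of the deposited tables. They are the ligands Fgf21, Fgf1, Fgf2 and Fgf10, the receptor gene Fgfr1, and Klb, the gene of the co-receptor beta-klotho. All 6 had enough reads to be tested. Their RNA was measured by RNA-seq in epididymal white adipose tissue, a visceral fat depot, of male mice. The SD group (7 libraries) ate a diet with 10% fat and the HFD group (10 libraries) a diet with 60% fat. In the other groups mice on the diet with 60% fat were given SZ-A, alkaloids from mulberry twigs (Ramulus Mori, Sangzhi), with 9 libraries at 200 mg/kg/day, 8 at 400 and 9 at 600. The sources used here do not give strain, age, length of feeding or time of tissue collection. The labels speak of biosamples without saying that each is a separate mouse, so p-values measure the spread between these samples.

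FGF21 is a hormone, made mainly by the liver, that acts on fat cells. It needs beta-klotho to bind FGFR1, so cells without the co-receptor respond poorly to it. FGF1, FGF2 and FGF10 act near the cells that release them, bind heparan sulfate and signal through FGF receptors without beta-klotho. FGF1 is known for the remodelling of visceral fat in mice on a high-fat diet and FGF10 for the formation of fat cells from precursors.

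On the high-fat diet Klb fell to 0.244 of its SD level and Fgf10 to 0.462, Fgf2 fell to 0.646, and Fgf1 rose 1.90-fold. SZ-A at 600 mg/kg/day raised Klb 2.20-fold and Fgf10 2.11-fold against HFD. Fgf1 and Fgf2 were not called at any dose against HFD. Fgfr1 and Fgf21 were called in no comparison of groups in edgeR. Of the 6 genes 4 were called for HFD against SD, where 31.7% of all 20218 tested genes were called, and 2 for SZ-A 600 against HFD, where 11.6% were. Called means an adjusted p under 0.05 (Benjamini-Hochberg, over the 20218 genes) in edgeR's quasi-likelihood test, with all 43 libraries in 1 fit. Every comparison with HFD shares the same 10 HFD libraries, so the doses are not independent of each other or of the diet comparison.

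Library totals lay between 32716294 and 44259619 counts, with a median of 37552576. The tissue label was met, since the fat cell genes Adipoq, Plin1, Cidec and Lep had counts in every library, while Ucp1 of brown fat was at 0 in 4. The libraries fell into sets that the labels do not mention, with 0.00319% to 0.00642% of counts on small noncoding RNA genes in 22 libraries (set 1) and 0.00992% to 0.0228% in 21 (set 2). Set 1 held 2 SD libraries and 5 of every other group. SD library 4, SZ-A 400 libraries 3 and 6 and SZ-A 600 library 6 carried RNA of other tissue, with high markers of ciliated, squamous or epididymal duct epithelium. Values are therefore also given within each set and without these 4 libraries. Among them SZ-A 400 library 6 had more RNA of epididymal duct markers (24196 CPM over 6 genes) than of mature adipocyte markers (4832 CPM over 12). The sets differed in how many genes were called at all. For HFD against SD set 1 alone called 3531 genes higher and 3794 lower of 20151. Set 2 alone called 202 and 146 of 21829. For SZ-A 600 against HFD the counts were 3385 and 2584 in set 1 and 4 and 0 in set 2.

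Levels of different genes were compared only per gene length, as the authors' deposited FPKM. Over the 43 libraries Fgfr1 stood highest of the 6 with a mean of 26.5 FPKM. Fgf1 followed with 14.1 FPKM, Klb with 12.8, Fgf10 with 8.76, Fgf2 with 4.31 and Fgf21 with 1.68. This order pools groups, and that of Klb, Fgf10 and Fgf1 turned with the diet. In SD the median FPKM was 25.7 for Klb, 11.98 for Fgf10 and 6.68 for Fgf1, and in HFD it was 4.83, 4.03 and 16.7. In SZ-A 600 the medians were 12.9 FPKM for Klb, 11.3 for Fgf10 and 15.4 for Fgf1.

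**Figure D1:**
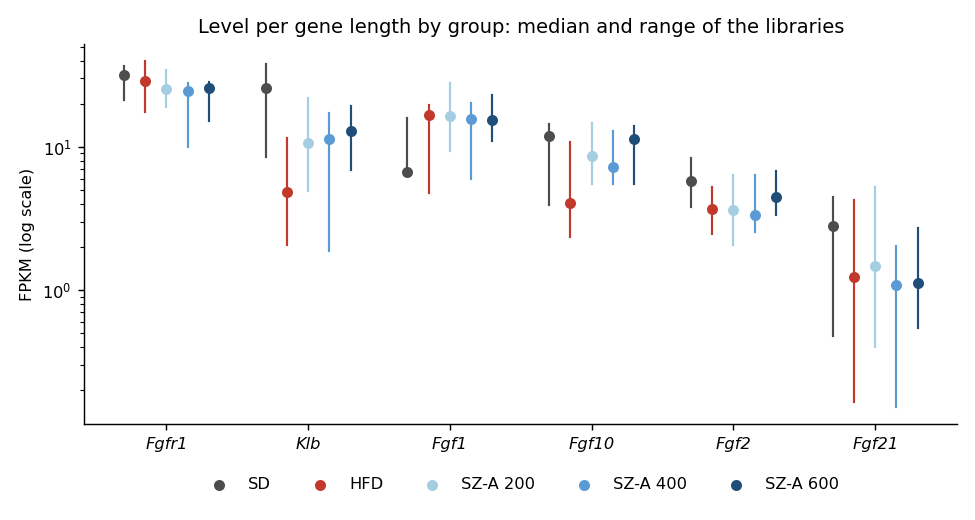
FPKM on a log axis of the 6 genes in the 5 groups, with points for the group medians and lines from the lowest to the highest library. Fgfr1 stays near the top in every group, the Klb median drops from 25.7 in SD to 4.83 in HFD, and Fgf21 lies lowest in every group.

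The ligand Fgf21 was the least abundant member, with 6 to 177 reads per library. The files place it (ENSMUSG00000030827) on chromosome 7 from 45263310 to 45264914 on the minus strand. Its normalised CPM (counts scaled to library size with TMM factors) ran from 0.443 to 4.27 in SD with a median of 2.55, and from 0.161 to 4.00 in HFD with a median of 1.198. The lowest, median and highest values were 0.394, 1.46 and 4.87 CPM with SZ-A 200, 0.145, 1.08 and 2.04 with SZ-A 400, and 0.519, 1.12 and 2.69 with SZ-A 600. All 5 groups overlapped. Means were 2.37 ± 1.53 CPM in SD (SD, n = 7), 1.47 ± 1.05 in HFD (n = 10), 1.90 ± 1.26 with SZ-A 200 (n = 9), 1.13 ± 0.57 with SZ-A 400 (n = 8) and 1.31 ± 0.80 with SZ-A 600 (n = 9). The log2 fold change of HFD against SD was -0.69 with a 95% interval from -1.66 to 0.27 (edgeR adjusted p = 0.264). For SZ-A 200, 400 and 600 against HFD it was 0.37, -0.38 and -0.16, with adjusted p = 0.902, 0.726 and 0.842 in edgeR. The intervals reached from -0.54 to 1.28, from -1.32 to 0.57 and from -1.08 to 0.75, so both a rise and a fall lay within them at this depth and spread. Within library set 1 alone Fgf21 was called lower on HFD (-2.01, adjusted p = 0.00771 in edgeR), where the SD side is 2 libraries with 4.01 and 4.27 CPM. Within set 2 the value was 0.16 (adjusted p = 0.922).

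Start site sequences are shown for the hormone and for the pair of genes that moved together, Klb and Fgf10. They run from 250 bases before to 50 after the start in RefSeq annotation of GRCm38.p6, 5′ to 3′ on the gene's strand. Sequences were read out for 4 of the 6 members. Capitals mark matches, on either strand, to an E-box (CACGTG), to an ATF4 element core (TGATGNAA), to a D-box (TTANGTAA) or to the nuclear receptor half-site AGGTCA, none of which overlap here.
Fgf21: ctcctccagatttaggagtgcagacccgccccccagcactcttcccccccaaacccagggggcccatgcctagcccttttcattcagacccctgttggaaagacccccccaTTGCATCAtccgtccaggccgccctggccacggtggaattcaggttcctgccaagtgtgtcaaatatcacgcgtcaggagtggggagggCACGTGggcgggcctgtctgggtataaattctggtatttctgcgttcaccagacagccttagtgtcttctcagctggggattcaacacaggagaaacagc
Klb: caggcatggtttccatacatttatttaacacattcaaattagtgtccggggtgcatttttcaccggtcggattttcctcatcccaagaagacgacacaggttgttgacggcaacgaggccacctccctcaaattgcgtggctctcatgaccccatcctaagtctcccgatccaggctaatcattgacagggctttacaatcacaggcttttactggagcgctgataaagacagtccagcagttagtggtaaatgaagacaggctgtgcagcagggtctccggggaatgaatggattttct
Fgf10: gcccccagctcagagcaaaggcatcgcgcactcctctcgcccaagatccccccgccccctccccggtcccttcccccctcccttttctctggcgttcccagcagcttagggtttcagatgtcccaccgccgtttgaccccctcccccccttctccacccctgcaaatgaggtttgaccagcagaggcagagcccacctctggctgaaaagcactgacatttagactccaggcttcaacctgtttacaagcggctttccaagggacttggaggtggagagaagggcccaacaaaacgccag
They lie at chr7:45615441-45615740 on the minus strand, chr5:65348161-65348460 on the plus strand and chr13:118714449-118714748 on the plus strand. The Fgf21 window holds the E-box 50 to 45 bases before the start and the ATF4 core, read on the other strand as TTGCATCA, 139 to 132 bases before it. Of 32851 promoters of this length 7.15% hold the E-box, 3.97% the ATF4 core, 2.32% the D-box and 16.3% the half-site. None of these letters was found in the Klb or Fgf10 window. Binding was not measured, and the labels name mm10 while the gene positions in the files are not those of GRCm38.p6, so both are given apart.

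Fgf1 was the member that rose on the high-fat diet. It encodes a local growth factor without a classical signal peptide, and the files place it (ENSMUSG00000036585) on chromosome 18 from 38971726 to 39062525 on the minus strand. Of the SD libraries 6 lay between 34.0 and 45.3 CPM and SD library 4, one of those with other tissue RNA, at 83.6. Of the HFD libraries 9 lay between 69.4 and 107.7 CPM and HFD library 8 at 25.8. Each group thus held 1 library at the level of the other. Means were 43.96 ± 17.9 CPM in SD (SD, n = 7) and 83.6 ± 25.1 in HFD (n = 10), a log2 fold change of 0.93 (SE 0.27, edgeR adjusted p = 0.00841). Without HFD library 8 it was 1.01 and without SD library 4 it was 1.13. The call was kept without any 1 of the 43 libraries. It held in library set 1 alone (1.13, adjusted p = 0.00829) and not in set 2 alone (0.70, adjusted p = 0.236), where it was 1.06 (adjusted p = 0.0468) once libraries with RNA of other tissue were left out.

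Under SZ-A Fgf1 was not called different from HFD at any dose, and 5 of the 26 SZ-A libraries lay above the highest HFD library (107.7 CPM). The lowest, median and highest values were 50.3, 91.6 and 156.8 CPM with SZ-A 200, 32.2, 85.2 and 115.2 with SZ-A 400, and 61.2, 87.9 and 124.7 with SZ-A 600. Log2 fold changes against HFD were 0.13, -0.11 and 0.04 (adjusted p = 0.949, 0.864 and 0.935 in edgeR), with 95% intervals within -0.62 and 0.62. Against SD the gene was called higher with SZ-A 200 (1.06, SE 0.28, adjusted p = 0.0102), where 15.4% of tested genes were called, and with SZ-A 600 (0.97, SE 0.27, adjusted p = 0.0416), where 3.36% were. With SZ-A 400 against SD it was 0.81 and missed the threshold in edgeR (adjusted p = 0.0517). DESeq2 and limma voom called it there. The SZ-A 600 call was lost without SD libraries 1, 2, 3, 5, 6 or 7 or SZ-A 600 libraries 1, 2, 3, 4 or 8, with adjusted p up to 0.102. The SZ-A 400 value was called without SD library 4, HFD library 8, SZ-A 200 libraries 4 or 9 or SZ-A 400 libraries 3, 6 or 7.

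Fgf2, the basic fibroblast growth factor, fell modestly with the diet. It (ENSMUSG00000037225) lies on chromosome 3 from 37402495 to 37464257 on the plus strand in the files. SD libraries ran from 25.8 to 55.1 CPM with a median of 39.3, and HFD libraries from 17.1 to 36.1 with a median of 25.1, so the groups overlapped in part. Means were 38.4 ± 9.54 CPM (SD, n = 7) and 24.8 ± 5.26 (n = 10), a log2 fold change of -0.63 (SE 0.20, edgeR adjusted p = 0.0136). The call was lost without SD library 3, the highest of its group (-0.51, adjusted p = 0.0531). Values within library sets were alike, -0.57 in set 1 (adjusted p = 0.152) and -0.61 in set 2 (adjusted p = 0.161), and neither was called alone. The SZ-A means were 27.2 ± 9.56, 27.2 ± 9.94 and 31.2 ± 7.32 CPM from the lowest to the highest dose, and against HFD the log2 fold changes were 0.13, 0.13 and 0.33 (adjusted p = 0.919, 0.773 and 0.234 in edgeR). Against SD they were -0.50, -0.50 and -0.30, not called in edgeR (adjusted p = 0.0842, 0.105 and 0.425). Limma voom called Fgf2 against SD at all 3 doses, and DESeq2 at none. Nudt6 overlaps Fgf2 on the other strand with a total count that was 11.2% of that of Fgf2. The libraries mark strand per the labels, but the strand setting of the counting is not given in the sources used here, so reads of Nudt6 may be counted in Fgf2.

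Fgf10, the ligand tied to fat precursor cells, was lower on HFD and higher with SZ-A. In the files it (ENSMUSG00000021732) is at chromosome 13, 118806327 to 118928651, plus strand. Of the SD libraries 6 lay between 48.0 and 66.5 CPM and SD library 4 at 17.4. HFD libraries ran from 11.2 to 49.2 CPM with a median of 18.7, and HFD library 8 was the highest. With SZ-A 600 they ran from 23.4 to 64.1 CPM with a median of 54.0, where SZ-A 600 library 6, with other tissue RNA, was the lowest. SD and HFD overlapped only through SD library 4 and HFD library 8. Means were 50.1 ± 15.5 CPM in SD (SD, n = 7), 23.2 ± 11.9 in HFD (n = 10) and 48.9 ± 12.4 with SZ-A 600 (n = 9).

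The diet difference of Fgf10 was -1.11 on the log2 scale (SE 0.27, edgeR adjusted p = 0.00189), and the difference of SZ-A 600 against HFD was 1.08 (SE 0.25, adjusted p = 0.00938). Both calls were kept without any 1 of the 43 libraries. SZ-A 200 ran from 25.0 to 67.6 CPM (mean 45.0 ± 18.3, n = 9) and SZ-A 400 from 25.1 to 59.7 (mean 39.2 ± 13.3, n = 8). Their differences from HFD were 0.96 (SE 0.25, adjusted p = 0.382) and 0.76 (SE 0.26, adjusted p = 0.101) and were not called, although the 95% intervals from 0.45 to 1.47 and from 0.24 to 1.28 lay above 0 before adjustment. Against SD the 3 doses stood at -0.15, -0.35 and -0.03 (edgeR adjusted p = 0.724, 0.415 and 0.972). Limma voom called Fgf10 against SD at SZ-A 200 and SZ-A 400, and DESeq2 called it at no dose. Library set 1 gave -1.88 for the diet and 1.53, 1.34 and 1.71 for the 3 doses, all called (adjusted p = 0.00115, 0.0245, 0.0394 and 0.00124). For the diet and SZ-A 600 set 2 gave -0.66 and 0.58, neither called (adjusted p = 0.327 and 0.560), and -0.88 and 0.81 without the libraries with other tissue RNA (adjusted p = 0.0805 and 0.620). Few genes of any kind were called in set 2 alone, with 4 higher and 0 lower of 21829 for SZ-A 600. Whether the sets differ was not tested.

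**Figure D2:**
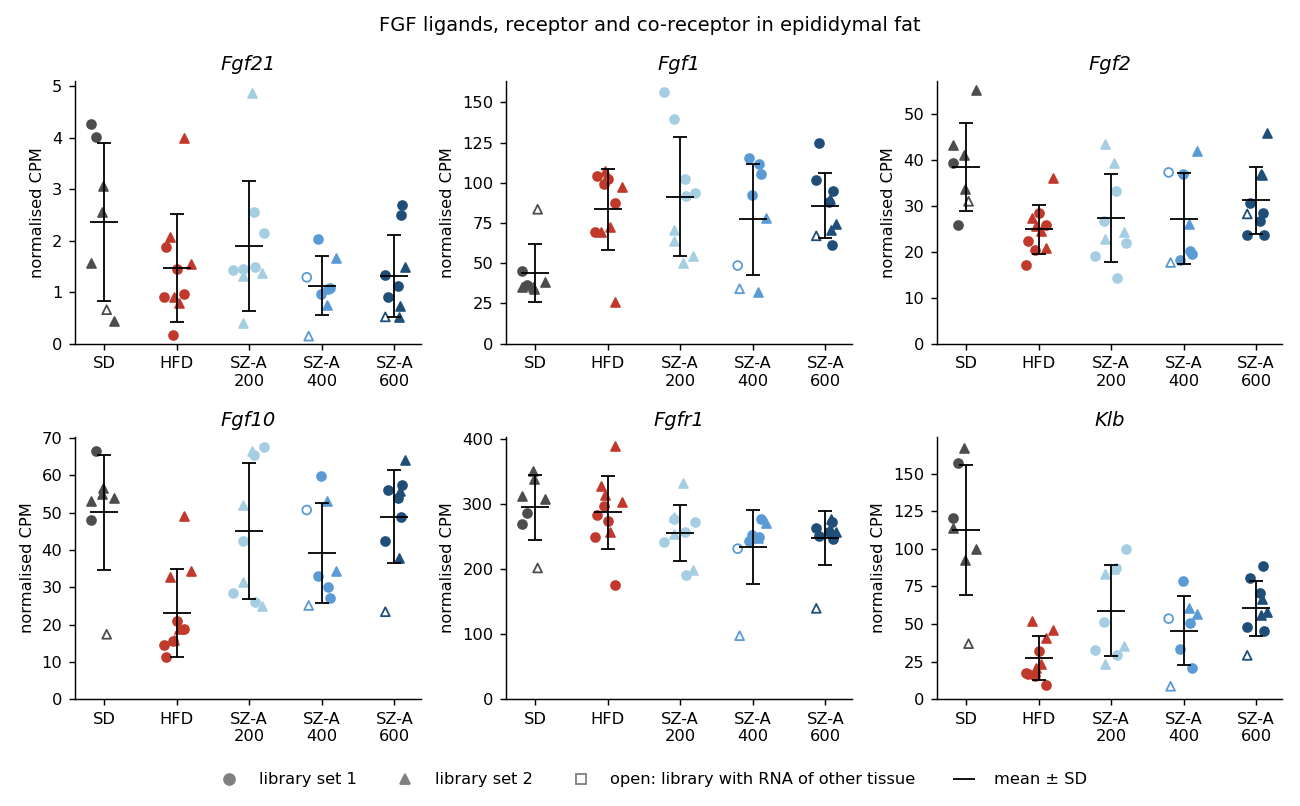
Normalised CPM of the 6 genes by group, 1 point per library, with the library set by shape, open symbols for libraries with RNA of other tissue, and mean ± SD. Klb and Fgf10 are low in HFD and stand higher with SZ-A, with means of 27.4 and 60.4 CPM for Klb in HFD and SZ-A 600, while the Fgf1 means are 77.2 CPM or more in all 4 high-fat groups and 43.96 in SD.

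The receptor gene Fgfr1, the main partner of beta-klotho in fat cells, was not called in edgeR. It (ENSMUSG00000031565) lies on chromosome 8 from 26003670 to 26065734 on the plus strand in the files. Its lowest, median and highest values were 201.4, 306.9 and 350.0 CPM in SD, and 175.2, 289.3 and 388.5 in HFD. They were 190.7, 256.5 and 331.9 CPM with SZ-A 200, 97.4, 248.8 and 275.8 with SZ-A 400, and 139.4, 256.8 and 276.0 with SZ-A 600. The lowest values with SZ-A 400 and SZ-A 600 came from library 6 of each, both with other tissue RNA. The log2 fold change of HFD against SD was -0.04 with a 95% interval from -0.35 to 0.28 (edgeR adjusted p = 0.867). For the 3 doses against HFD it was -0.16, -0.30 and -0.22 (adjusted p = 0.859, 0.290 and 0.333), with the widest interval from -0.60 to 0.01 at SZ-A 400. Limma voom with quality weights called Fgfr1 lower on HFD (-0.22, adjusted p = 0.0379), a size within the interval above. For the diet that tool called 6700 genes higher and 7117 lower of 20218. It also called Fgfr1 in each SZ-A group against SD. In edgeR these were -0.20, -0.34 and -0.25 from the lowest to the highest dose (adjusted p = 0.380, 0.169 and 0.386), with an unadjusted p of 0.0475 at SZ-A 400.

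Klb had the largest diet difference of the 6 genes. Beta-klotho is the co-receptor that gives fat cells their response to FGF21, and the files place its gene (ENSMUSG00000029195) on chromosome 5 from 65505657 to 65541350 on the plus strand. SD libraries ran from 36.9 to 166.9 CPM with a median of 114.1, and all but SD library 4 were at 92.3 or more. HFD libraries ran from 9.54 to 52.2 CPM with a median of 22.0. Every SD library other than library 4 stood above every HFD library. Means were 113 ± 43.4 CPM in SD (SD, n = 7) and 27.4 ± 14.6 in HFD (n = 10), a log2 fold change of -2.04 (SE 0.35, edgeR adjusted p = 1.83e-04). The call was kept without any 1 of the 43 libraries, with values from -2.22 to -1.91.

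With SZ-A, Klb stood between the diets. The lowest, median and highest values were 23.1, 51.6 and 100.1 CPM with SZ-A 200, 8.55, 52.3 and 78.9 with SZ-A 400, and 29.1, 58.1 and 88.5 with SZ-A 600. All dose groups overlapped both HFD and SD, where SZ-A 400 and SZ-A 600 reached into the SD range only through SD library 4. Means were 58.8 ± 30.2 CPM (SD, n = 9), 45.4 ± 23.0 (n = 8) and 60.4 ± 18.5 (n = 9). The difference from HFD was 1.14 with SZ-A 600 (SE 0.33, edgeR adjusted p = 0.0232), called, and kept without any 1 library with adjusted p up to 0.0493. It was 1.10 with SZ-A 200 (SE 0.33, adjusted p = 0.439) and 0.73 with SZ-A 400 (SE 0.34, adjusted p = 0.240), neither called. Fitted differences at the lowest and the highest dose were thus close in size, and the adjustment over genes differed, with 0.00989% of tested genes called at SZ-A 200, 2.87% at SZ-A 400 and 11.6% at SZ-A 600.

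Against SD, Klb was lower by -0.94 with SZ-A 200 (adjusted p = 0.0667), -1.31 with SZ-A 400 (adjusted p = 0.0206) and -0.90 with SZ-A 600 (adjusted p = 0.143), in edgeR on the log2 scale. Only the SZ-A 400 value was called, in a comparison where 10.9% of tested genes were, and it was lost without SD library 6 or SZ-A 400 library 2, with adjusted p up to 0.0543. DESeq2 called Klb lower than SD at SZ-A 200 and 400, and limma voom at all 3 doses. The SZ-A 200 value was called without SD library 4, SZ-A 200 libraries 5 or 9 or SZ-A 400 library 6. Within library set 1 the Klb differences were -3.00 for the diet (adjusted p = 6.73e-04) and 1.76, 1.41 and 1.92 for the 3 doses against HFD, all called (adjusted p = 0.0359, 0.0493 and 0.00300). Within set 2 they were -1.49 (adjusted p = 0.105) and 0.63, 0.18 and 0.51 (adjusted p = 0.981, 0.905 and 0.711), none called. At the rising doses set 1 called 504, 659 and 3385 genes higher and 60, 166 and 2584 lower, of 20151. Set 2 called 0, 82 and 4 higher and 0, 4 and 0 lower, of 21829. Without the libraries with other tissue RNA set 2 gave -1.71 for the diet, called (adjusted p = 0.0144), and 0.62, 0.67 and 0.72 for the doses, not called (adjusted p = 0.653, 0.580 and 0.700). In HFD the Klb range was 9.54 to 31.8 CPM in set 1 and 20.8 to 52.2 in set 2.

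**Figure D3:**
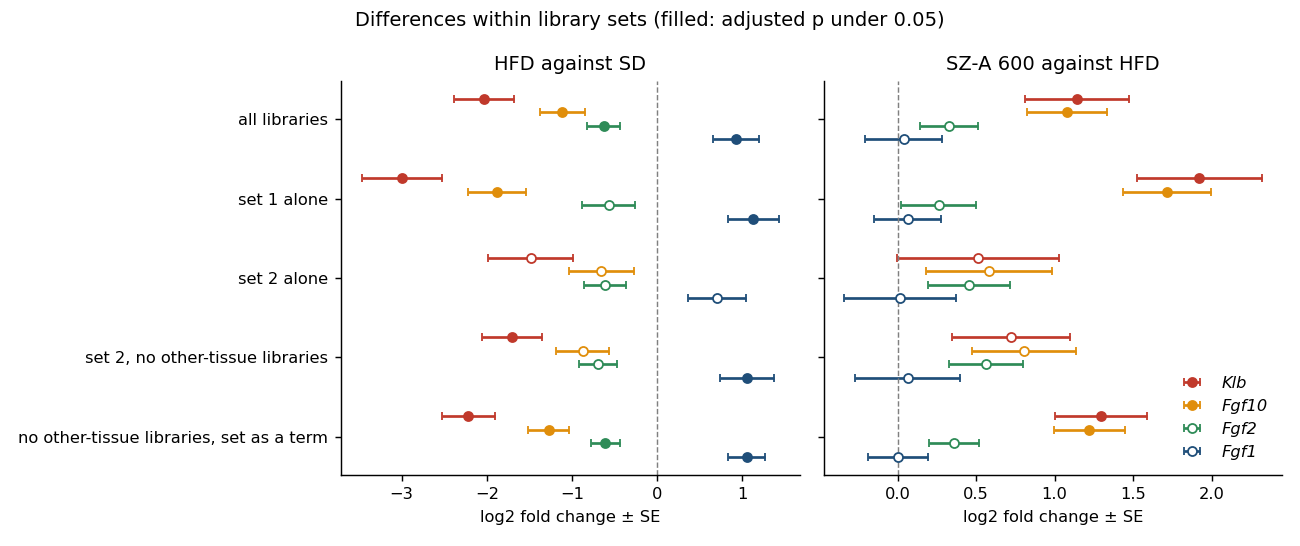
Log2 fold changes ± SE of Klb, Fgf10, Fgf2 and Fgf1 in all libraries, within each library set and without the libraries with RNA of other tissue, for HFD against SD and SZ-A 600 against HFD, with filled points for an adjusted p under 0.05. Directions of the diet values are the same in both sets, and the SZ-A 600 values of Klb fall from 1.92 in set 1 to 0.51 in set 2.

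Over the high-fat groups a linear trend with dose was called for Fgf10 and Klb, both rising by 0.15 on the log2 scale per 100 mg/kg/day (SE 0.04 and 0.05, edgeR adjusted p = 0.0120 and 0.0442), where 14.7% of tested genes had a called trend. The Klb trend was lost in 22 of 43 fits that left out 1 library. These libraries were HFD libraries 1 to 7, SZ-A 200 libraries 2, 3, 4, 7 and 8, SZ-A 400 libraries 1, 3, 7 and 8, and SZ-A 600 libraries 2, 3, 5, 6, 7 and 9. The fitted means of Klb and Fgf10 did not climb at each step from dose to dose. Differences from HFD at the rising doses were 1.10, 0.73 and 1.14 for Klb and 0.96, 0.76 and 1.08 for Fgf10. Between doses no member was called in edgeR, at an adjusted or an unadjusted p under 0.05, where 1.04% of tested genes were called for SZ-A 400 against 200, 0% for SZ-A 600 against 200 and 0.519% for SZ-A 600 against 400. DESeq2 and limma voom called no member between doses either, but in limma voom Fgf2, Fgf10 and Klb had an unadjusted p under 0.05 for SZ-A 600 against both lower doses. The difference of SZ-A 600 from SZ-A 200 was 0.04 for Klb, with a 95% interval from -0.64 to 0.72, and 0.12 for Fgf10, from -0.40 to 0.64.

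**Figure D4:**
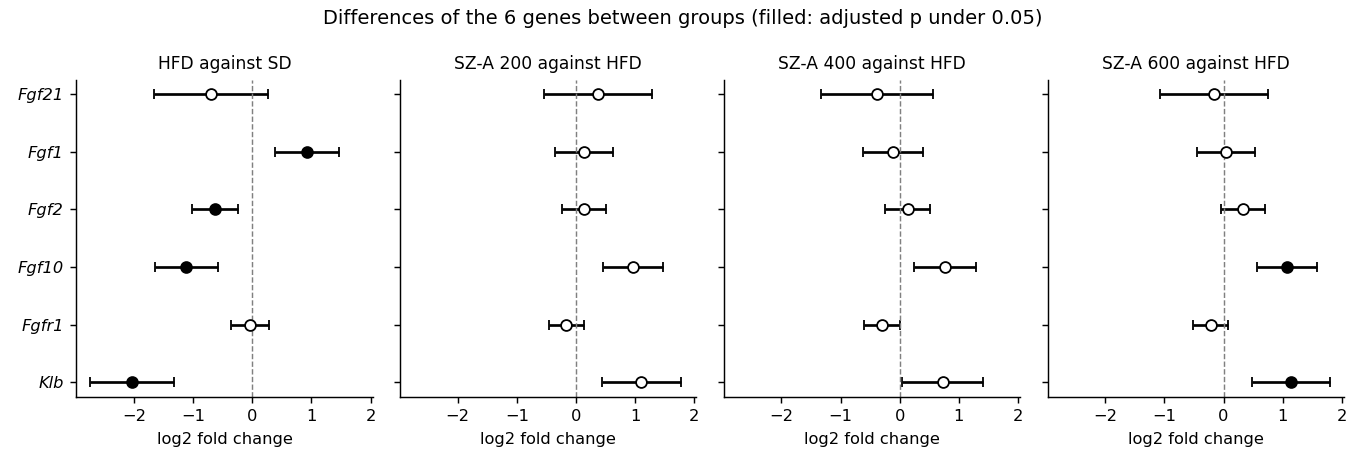
Log2 fold changes with 95% intervals of the 6 genes for HFD against SD and for each SZ-A dose against HFD, with filled points for an adjusted p under 0.05. Klb (-2.04), Fgf10 (-1.11), Fgf2 (-0.63) and Fgf1 (0.93) are filled for the diet, and Klb (1.14) and Fgf10 (1.08) for SZ-A 600.

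In the order of mean CPM, Klb ran from SD through SZ-A 600, SZ-A 200 and SZ-A 400 to HFD, and Fgf10 in the same order. Fgf2 also had SD highest and HFD lowest. For Fgf1 the order was SZ-A 200, SZ-A 600, HFD, SZ-A 400 and SD. Neighbours in the order of means were not called different in edgeR for any of the 6 genes. Limma voom called SD different from its neighbour for Klb and Fgf2 (SZ-A 600), Fgf1 (SZ-A 400) and Fgfr1 (HFD). DESeq2 did so for Fgf1. The count of 0 members called against HFD in edgeR at SZ-A 200 and at SZ-A 400 stands beside 2 members at an unadjusted p under 0.05 in each, Fgf10 and Klb. Limma voom called both in both comparisons, and DESeq2 called neither.

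Markers of other cell types moved with these genes. In bulk tissue fewer cells of a type and less RNA per cell cannot be told apart. The counts below stand beside 31.7% of all tested genes called for the diet and 11.6% for SZ-A 600 against HFD. Of 11 macrophage markers 10 were called higher in HFD than in SD, and their summed level had medians of 577 CPM in SD (range 458 to 1128) and 6920 in HFD (881 to 10917). It had medians of 4362, 1476 and 2058 CPM at the rising doses, with ranges of 1100 to 8613, 273 to 10096 and 482 to 5545, and 6 of 11 markers were called lower with SZ-A 600 than in HFD. The 12 mature adipocyte markers had summed medians of 50663 CPM in SD (range 16399 to 67704), 30644 in HFD (20295 to 79050), 38083 with SZ-A 200, 41637 with SZ-A 400 and 53798 with SZ-A 600 (18657 to 61270). Only Lep and Cfd of the 12 were called between the diets. Of 12 preadipocyte and fibroblast markers 6 were called higher on HFD and 6 lower with SZ-A 600 than in HFD, with summed medians of 1683 CPM in SD (range 1359 to 5125), 6455 in HFD (1549 to 8919), and 2715, 2246 and 2225 at the rising doses. Of 10 endothelial markers 4 were called lower on HFD and none higher, and none was called with SZ-A 600 against HFD. Their summed medians were 2546 CPM in SD (range 1210 to 3310) and 1352 in HFD (1035 to 2834). At the rising doses they were 1225, 1697 and 1464 CPM. No marker of these lists was at 0 in any library, and the part of these cell types in the changes of the 6 genes was not tested.

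Set against the summed adipocyte markers of the same library, Klb did not overlap between the diets, whereas its CPM did through SD library 4. The ratio, in CPM of Klb per 1000 CPM of the 12 markers, ran from 1.95 to 2.99 in SD, with SD library 4 at 2.25, and from 0.299 to 1.22 in HFD. Of all tested genes 0.297% had a ratio lower in every HFD library than in every SD library. The mean ratios were 2.28 ± 0.34 in SD (SD, n = 7), 0.800 ± 0.300 in HFD (n = 10), 1.38 ± 0.45 with SZ-A 200 (n = 9), 1.21 ± 0.35 with SZ-A 400 (n = 8) and 1.30 ± 0.27 with SZ-A 600 (n = 9). SZ-A 400, with at most 1.77, and SZ-A 600, with at most 1.62, also lay below every SD library, as 0.0297% and 0.129% of tested genes did. SZ-A 200 reached 2.19 and overlapped SD. All 3 doses overlapped HFD, where the highest ratio was 1.22 and the lowest with SZ-A were 0.877, 0.649 and 0.823.

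For Fgf10 the same ratio was 1.04 ± 0.15 in SD, 0.658 ± 0.135 in HFD and 1.06 ± 0.18 with SZ-A 600 (SD, n = 7, 10 and 9), with overlap between 0.773, the lowest in SD, and 0.851, the highest in HFD. With SZ-A 200 it was 1.09 ± 0.27 (n = 9), from 0.767 to 1.499. SZ-A 400 had a median of 0.902 and a single far value of 5.20. That value was in library 6, with other tissue RNA, where the adipocyte marker sum was the lowest of the group (4832 CPM). For Fgf1 the ratio had medians of 0.730 in SD, 3.05 in HFD and 1.72 with SZ-A 600, and SD library 4 stood at 5.10. For Fgf2, called lower on HFD in CPM, the ratio was alike in both diets, with medians of 0.736 in SD and 0.778 in HFD and overlapping ranges of 0.381 to 1.89 and 0.263 to 1.27. For Fgfr1 the medians were 6.27 in SD, 8.92 in HFD and 4.77 with SZ-A 600, also with overlap, and for Fgf21 they were 0.0457, 0.0412 and 0.0277. Ratios to a marker sum describe these libraries and were given no test, since they were chosen after the marker levels had been seen.

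**Figure D5:**
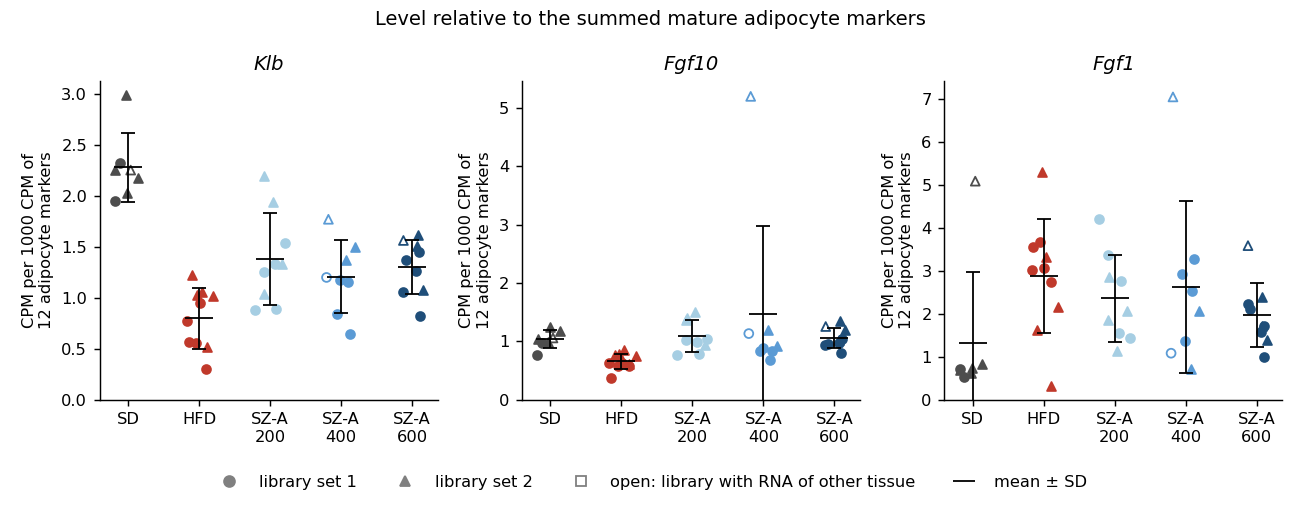
CPM of Klb, Fgf10 and Fgf1 per 1000 CPM of the 12 summed adipocyte markers, 1 point per library by group, with the library set by shape, open symbols for libraries with RNA of other tissue, and mean ± SD. The SD libraries lie at 1.95 or higher for Klb and all HFD libraries at 1.22 or lower.

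HFD library 8 stood apart from the other HFD libraries in several members at once. It had the highest Fgf21 (4.00 CPM), Fgf10 (49.2) and Fgfr1 (388.5) and the lowest Fgf1 (25.8) of its group. It also had the lowest macrophage marker sum (881 CPM) and the highest adipocyte marker sum (79050 CPM). Its Klb, at 40.8 CPM, was within the range of its group. Without it the log2 fold changes of SZ-A 600 against HFD were 1.23 for Klb and 1.28 for Fgf10, and Fgf10 was also called with SZ-A 400 (0.96, adjusted p = 0.0262 in edgeR).

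Among the 43 libraries Klb and Fgf10 had a Spearman correlation of 0.85, and of 0.86 after the group means were taken out. The points share tissue makeup and library set, so this is a description. For Klb and Fgf2 it was 0.68, and 0.53 after the group means were taken out, where Klb and Fgfr1 had 0.59 and Klb and Fgf21 0.53. Fgf1 had coefficients from -0.35 to -0.10 with the other 5. The tested genes most like Klb, among 13551 with a mean of at least 1 CPM and a gene symbol, were Pde3b, a phosphodiesterase of the insulin response, Nedd4, a ubiquitin ligase, and Negr1, each with a coefficient of 0.95. Those most like Fgf10 were Fitm2, a lipid droplet protein (0.91), Ankef1 (0.91) and Nat8l, which makes N-acetylaspartate (0.90). Fgf1 was most like Pam (0.87), Pcolce2 (0.86) and Htra1 (0.86), the latter pair coding for extracellular proteins. Fgf2 was most like Plagl1 (0.85), Ptpn14 (0.84) and Irs1 (0.82), an adaptor of the insulin receptor. Fgfr1 was most like Coro2b (0.76), and Fgf21 most like Vhl (0.76) and Maff (0.74).

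Few other genes of the FGF family could be tested. Of 18 listed, not all of them secreted ligands, 7 could be tested, of which 2 were called higher in HFD than in SD and none lower. The median log2 fold change was 0.82, against -0.05 over all tested genes, of which 31.7% were called. Fgf13, an FGF homologue that stays inside the cell, had 19.0 ± 12.0 CPM in SD (SD, n = 7) and 66.6 ± 19.3 in HFD (n = 10), a difference of 1.81 (SE 0.38, edgeR adjusted p = 6.67e-04). Fgf18 rose by 1.88 (SE 0.60, adjusted p = 0.0160) from a low level of 0.734 ± 0.891 to 2.72 ± 1.45 CPM. Neither was called at any dose against HFD in edgeR, although the dose trend of Fgf18 was, with -0.27 per 100 mg/kg/day (adjusted p = 0.0303). Once libraries with RNA of other tissue were left out, Fgf18 was called lower with SZ-A 600 (-1.51, adjusted p = 0.0496 in edgeR). In the same fit 3 genes of the list were called higher on HFD, Fgf13 (1.66), Fgf18 (2.68) and Fgf7 (1.08, adjusted p = 0.0114). In that fit 4151 genes were called higher and 3110 lower on HFD, of 20054. With all 43 libraries Fgf13 stayed called above SD at every dose (2.04, 1.62 and 1.96, adjusted p = 0.00266, 0.00895 and 0.00401).

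Among the other receptors, Fgfr2, Fgfr3, Fgfr4 and Fgfrl1, which lacks the kinase domain, could be tested and the FGF23 co-receptor Kl could not. Per gene length Fgfrl1 was abundant, with a median of 119.6 FPKM in SD and 75.5 in HFD, whereas Fgfr3 had 4.23 and 1.05 and Fgfr2 1.17 and 0.624. Fgfr4 was called lower in HFD (-6.45) and higher with SZ-A 600 (6.83), and these values rested on SD library 4 (74.3 CPM) and SZ-A 600 library 6 (129 CPM), both with other tissue RNA. Without such libraries they were -2.19 (adjusted p = 0.0859) and -0.71 (adjusted p = 0.699) in edgeR. Likewise Fgfr2 was called higher with SZ-A 400 (2.08, adjusted p = 0.0410), where library 6 had 174 CPM, and without those libraries stood at 0.06 (adjusted p = 0.959). On HFD Fgfr2 was then called lower (-0.81, adjusted p = 0.0140).

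The adaptors and kinases between the receptor and ERK were mixed. Of 16 tested 5 were called higher and 2 lower in HFD than in SD. The median was 0.03, against -0.05 over all tested genes, of which 31.7% were called. Grb2, an adaptor, rose by 1.29 (SE 0.26, adjusted p = 4.60e-04 in edgeR), and the MEK genes Map2k2 and Map2k1 rose by 0.81 and 0.57. Plcg1, a phospholipase of the receptor complex, and Sos1, a Ras activator, fell by 0.61 and 0.29. With SZ-A 600 3 were called lower than HFD and none higher, where 11.6% of all tested genes were called (list median -0.15, against 0.06). They were Map2k2 (-0.54), Shc1 (-0.30) and Cbl (-0.74). None was called at SZ-A 200 or 400 in edgeR. The macrophage marker sum was also higher on HFD and lower with SZ-A 600, and its part here was not tested.

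Feedback and response genes of FGF signalling showed no single direction. Of 16 tested 3 were called higher and 3 lower on HFD. The median was -0.29, against -0.05 over all tested genes, of which 31.7% were called. Dusp4, an ERK phosphatase, fell from 43.3 ± 9.85 CPM in SD (SD, n = 7) to 18.5 ± 3.06 in HFD (n = 10), by 1.23 on the log2 scale (SE 0.27, edgeR adjusted p = 0.00103). Flrt3, which codes for a membrane protein that binds FGF receptors, fell by 1.03 and Spred2, an inhibitor of Ras signalling, by 0.38. Spred1 (0.94), Etv5 (0.71) and Dusp5 (1.63) rose. With SZ-A 600 against HFD Flrt3 was called higher (1.18, SE 0.28, adjusted p = 0.00993), and Spred1 (-0.75), Dusp6 (-0.40), Etv4 (-1.76) and Fos (-1.002) lower (median -0.23, against 0.06). That comparison called 11.6% of all tested genes. Fos was not called without the libraries with other tissue RNA (-0.92, adjusted p = 0.0627). Flrt3 was also called higher with SZ-A 400 (1.27, adjusted p = 0.00989), and not without those libraries (1.38, adjusted p = 0.0734).

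Genes known to regulate Fgf21 or Klb included 3 that moved with Klb. Of 7 tested 3 were called lower on HFD and none higher (median -0.58, against -0.05). Over all tested genes 31.7% were called for the diet, and 0.00989%, 2.87% and 11.6% against HFD at the rising doses. Ppara, the fatty acid receptor that induces Fgf21 in liver, fell from 7.13 ± 2.66 to 2.23 ± 1.07 CPM, by 1.67 (SE 0.38, edgeR adjusted p = 0.00110). The clock repressors Nr1d1 (REV-ERB alpha, known in mice as a repressor of Klb in fat) and Nr1d2 (REV-ERB beta) fell by 0.98 and 0.53 (adjusted p = 9.96e-04 and 0.00163). All 3 were called higher than HFD with SZ-A 400 and with SZ-A 600, and Nr1d2 also with SZ-A 200 (list medians 0.14, 0.19 and 0.54 at the rising doses, against 0.02, 0.05 and 0.06 over all tested genes). Without the libraries with other tissue RNA the SZ-A 400 calls of Ppara (0.53, adjusted p = 0.614) and Nr1d1 (0.82, adjusted p = 0.160) were lost.

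Nr1d2 was the only tested gene, 0.00495% of them, with a higher normalised CPM in every SZ-A library than in every HFD library. It ran from 38.3 to 60.9 CPM in HFD, from 64.6 to 92.3 with SZ-A 200, from 66.8 to 124.8 with SZ-A 400 and from 77.5 to 114.5 with SZ-A 600. SD libraries, from 56.5 to 92.6 CPM, overlapped HFD and all doses. The differences from HFD were 0.65, 0.86 and 0.89 (SE 0.12 each, edgeR adjusted p = 0.0312, 1.17e-04 and 1.42e-05). Nr1d1 and Nr1d2 are known to cycle with the time of day, and the time of collection is not given.

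Of 6 genes described as induced by FGF21 in fat, only Ppargc1a was called between the diets, lower on HFD (-2.02, SE 0.41, edgeR adjusted p = 4.87e-04), from 11.9 ± 5.22 to 2.95 ± 1.14 CPM. The list median was -0.19, against -0.05 over all tested genes, of which 31.7% were called. Without the libraries with other tissue RNA, Dio2, a deiodinase gene, was also called, higher on HFD (3.76, adjusted p = 0.00431), and Cidea lower (-1.11, adjusted p = 0.00749). With SZ-A 600 Ppargc1a was called higher than HFD (1.19, adjusted p = 0.0394), carried in part by SZ-A 600 library 6 (26.6 CPM), and without the libraries with other tissue RNA it was not (0.52, adjusted p = 0.255). With SZ-A 400 Cidea, a lipid droplet gene of brown fat, was called higher than HFD (2.23, adjusted p = 0.00609), where SZ-A 400 library 3 had 66.5 CPM. Without those libraries Cidea stood at 0.64 (adjusted p = 0.537). Ucp1, the uncoupling protein gene, had medians from 0.157 to 0.320 CPM in the 5 groups and was not called. Adipoq, the gene of adiponectin, was called higher with SZ-A 600 only without those libraries (0.96, adjusted p = 0.0415).

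Heparan sulfate proteins hold FGF1, FGF2 and FGF10 at the cell surface. Of 18 tested genes for these proteins, their enzymes and other FGF-binding or cleaving proteins, 7 were called higher on HFD, none was called lower and 11 did not pass. The median was 0.23, against -0.05 over all tested genes, of which 31.7% were called. Sdc3, a syndecan, went from 80.8 ± 10.3 CPM in SD (SD, n = 7) to 369 ± 192 in HFD (n = 10), a difference of 2.19 (SE 0.41, edgeR adjusted p = 3.11e-04). Sdc1, another syndecan, rose by 2.32, the sulfotransferase gene Hs6st1 by 1.54 and the glypican gene Gpc1 by 1.28. With SZ-A 600 Sdc3 (-1.40, SE 0.36, adjusted p = 0.0144) and Gpc6 (-1.12, SE 0.37, adjusted p = 0.0405) were called lower than HFD and none higher. That comparison called 11.6% of all tested genes. HFD library 8 was the lowest HFD library for Sdc1 (20.6 CPM), Sdc3 (67.3) and Gpc1 (38.6), as for the macrophage marker sum. The part of the macrophage markers in these changes was not tested.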

How the data were processed

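Epididymal fat RNA with a poly(A) tail was read in strand-marked libraries as pairs of 150 bp, per the labels' protocols. Per the file headers the deposited tables hold a whole-number count for each gene, which the tests used unchanged, and FPKM values that the authors computed, which served for levels between genes and for 2 alternatives on log2(FPKM + 1) and log2(FPKM + 0.1). The scale of the authors' FPKM relative to counts differed between libraries, from 0.776 to 1.15. The sources used here name no aligner or counting program, and the genome named in the submitters' processing notes is mm10.

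Groups and doses came from the labels. Of 56748 genes 20218 passed filterByExpr. Tests were made with edgeR 4.0.16 in R 4.3.3 (TMM, robust quasi-likelihood F test, two-sided, 43 libraries in 1 fit). The SE is the size of the log2 fold change divided by the square root of F, and intervals are unadjusted. Alternatives used limma 3.58.1 and DESeq2 1.42.0, other filters and scalings, the replicate number as a block, library sets, and each library left out. Figures were drawn with matplotlib 3.10.9. The fit was tested on simulated data.

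The 2 library sets lie on either side of the widest gap in the small noncoding RNA share, on a log scale. A library with other tissue RNA had 100 or more genes with at least 10 CPM and over 20 times the median library, with a floor of 0.05 CPM. From each pathway list the up to 4 called genes per direction with the smallest p were named, and for each member the 3 most like it. Ucp1, Cidea and Adipoq, the ratio to adipocyte markers, the non-overlap of Nr1d2 and genes named for a call seen or lost without the libraries with other tissue RNA were chosen after their values were seen. The 6 genes, the lists and the tests were chosen with earlier results of these data known. One alternative, library set 2 without the libraries with other tissue RNA, was added after seeing the data. At totals of 32716294 to 44259619 counts per library Fgf21 had the fewest reads of the 6 genes, from 6 to 177. The part of depth in its wide intervals was not tested.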

Additional observations from a re-analysis of the deposited data

Results flagged for a closer look

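Of 30 groups of values (6 genes in 5 groups), 7 held a library far from the others by Dixon's test at the 95% level, and chance flags about 1 in 20 groups. Fgf21 was highest in HFD library 8 at 4.00 CPM, where the next of its group had 2.06, and in SZ-A 200 library 9 at 4.87 CPM, where the next had 2.56. Fgf1 was highest in SD library 4 at 83.6 CPM and lowest in HFD library 8 at 25.8 CPM. Fgf10 was lowest in SD library 4 at 17.4 CPM, where the next had 48.0. Fgfr1 was lowest in SZ-A 400 library 6 at 97.4 CPM, where the next had 230.9, and in SZ-A 600 library 6 at 139.4 CPM, where the next had 245.7. SD library 4 and both of the latter libraries carried RNA of other tissue, and HFD library 8 did not.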

How the results depend on the processing

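The 5 counts of members called were compared under 17 other settings and 43 fits without 1 library. HFD against SD had 4 members called, 0 in library set 2 alone and 2 there without the libraries with other tissue RNA. SZ-A 200 and SZ-A 400 against HFD had 0 called in edgeR, with 2 at an unadjusted p under 0.05 and 0 in DESeq2. Each had 2 with limma voom and 2 in library set 1 alone, and SZ-A 200 also had 2 in the fit with a library set term and none of the 4 libraries with RNA of other tissue. Leave-one-out counts ran from 0 to 1 for SZ-A 400. SZ-A 600 against HFD had 2, and 0 in library set 2 with or without those libraries. Over all genes set 2 alone called 4 higher and 0 lower of 21829 for SZ-A 600, and 0 of 21688 without those libraries. For the diet it called 202 higher and 146 lower, and 1323 and 772 without them. The dose trend had 2, then 1 with no filter beyond 1 count, 1 with only the groups of the comparison, 0 in library set 2 with or without those libraries, and 1 to 2 without 1 library. Causes of these changes were not tested. Among values of single genes none that was called changed sign, 108 uncalled values of 3960 did, 63 lost a call and 57 gained one.

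Replicate numbers gave no clear pairing of the samples. Same-numbered samples correlated above 0.1 in 3 of 7 pairs for HFD and SD, and in 6 of 9, 6 of 8 and 7 of 9 for the doses and HFD. A sample correlated best with its own number in at most 3. Library set follows the number, with libraries 1 to 5 of each high-fat group in set 1 but only libraries 1 and 2 of SD. The block thus joins SD libraries 3 to 5 with libraries of the other set. The part of the set in these values was not tested. With the replicate block Klb was -2.39 for HFD against SD and 1.39 for SZ-A 600 against HFD (edgeR adjusted p = 1.1e-05 and 0.00849), Fgf10 -1.30 and 1.21 (adjusted p = 4.70e-04 and 0.00542), and all 5 counts of members stayed the same. Over all genes the block called 5060 higher and 5112 lower for HFD against SD.

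For HFD against SD upper-quartile scaling moved the median of all genes from -0.05 to -0.17 and gave 2959 genes higher and 3501 lower in place of 3725 and 2689, and limma voom gave 6700 and 7117. For SZ-A 600 against HFD the main counts were 1036 higher and 1308 lower, with 4439 and 4493 in limma voom and 1693 and 2043 with the replicate block. For SZ-A 200 they were 2 and 0, with 11 and 15 in DESeq2 and 309 and 174 in limma voom, and for SZ-A 400 498 and 82, with 5 and 1 when only its groups were fitted. Under upper-quartile scaling Klb was -2.13, Fgf10 -1.20, Fgf2 -0.75 and Fgf1 0.80, all called. Fgf21, with at most 177 reads per library, had the widest intervals of the 6 genes.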
